A study of Mus musculus with 8 samples.

Results

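The genes described here encode the enzymes that write and erase acetyl and methyl marks on histones, together with the TET enzymes that act on methylated DNA. They were chosen by symbol: every probe set with exactly 1 gene symbol beginning with Hdac or Setd, or with Kdm, Kmt, Kat, Sirt or Tet followed by a digit, and those for Ezh1, Ezh2, Eed, Suz12, Crebbp, Ep300 and Nsd1. This gave 180 probe sets of 72 genes among 18193 genes with a symbol. A filter on dim probe sets left 70 of the 72 to be tested, among 11754 genes. Kdm4d (mean signal 6.26) and Tet1 (18.2) fell under the filter level of 18.7, and the next gene above it was Kdm5b (62.2).

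The 8 arrays came from splenic germinal centre (GC) B cells of 8-week-old C57BL6 mice that carry a GFPMYC fusion allele, and both groups carry it. The mice had received sheep red blood cells 12 days earlier, a standard way to raise germinal centres. From a bead-enriched B cell fraction, cells high for peanut agglutinin binding and for CD95 were taken as GC B cells and sorted by GFP into 4 MYC-positive samples and 4 MYC-negative samples. The sample descriptions join them in 4 pairs, and the protocol speaks of pools sorted for each mouse. The labels thus do not settle whether a pair is 1 animal or a pool. In pair 2 both Xist and Y-linked genes were well detected, with values given below. The comparison addresses how the GC B cells with the fusion protein differ from those without it.

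Histone acetyltransferases add acetyl groups to lysines, which generally accompanies active transcription, and histone deacetylases (HDACs) and sirtuins remove them. Methyl marks differ by site: H3K4 and H3K36 methylation mark active promoters, enhancers and gene bodies, while H3K9 and H3K27 methylation mark silent chromatin. In GC B cells these enzymes are well known because the H3K27 methyltransferase Ezh2 is needed to form the germinal centre, and because CREBBP, EP300, KMT2D, EZH2 and TET2 are often mutated in human lymphomas that arise from it.

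Myc itself had signals of 361, 932, 644 and 891 in the MYC-positive samples of pairs 1 to 4, against 33.3, 156, 105 and 137 in the MYC-negative samples. The groups did not overlap, and the log2 difference was 2.83 (SE 0.28, n = 4 pairs, limma adjusted p = 0.00069). The cells were sorted on this protein, so the difference checks the labels. The arrays had trimmed mean signals of 495.1 to 496.8. Their median signals ran from 28.2 to 39.7 in MYC-positive samples and from 41.4 to 55.8 in MYC-negative samples, so the groups were apart in the dim range of the array. B cell markers had 2 of 7 measured lower and 0 higher at a limma adjusted p under 0.05. They summed to 39400 to 48100 in MYC-positive samples and 48900 to 58900 in MYC-negative samples. GC B cell markers had 2 of 9 measured lower and 0 higher. These summed to 36900 to 46700 in MYC-positive samples and 42600 to 59100 in MYC-negative samples. In each list 5 were lower and 0 higher at an unadjusted p under 0.05 in the limma fit. Of all 11754 genes tested, 1352 were lower by adjusted p and 2257 by unadjusted p. Macrophage markers moved with the sort: 11 of 16 measured were higher and 1 lower, and they summed to between 2390 and 13000 in MYC-positive samples, against 1150 to 2430 in MYC-negative samples. Plasma cell markers had 2 of 6 measured higher and 0 lower, with 1 lower at an unadjusted p under 0.05 in the limma fit, summing to 25300 to 31900 in MYC-positive samples and 18100 to 29300 in MYC-negative samples. The part of these marker differences in the results below was not tested. T cell markers had 3 of 10 above the filter, with 1 higher (Thy1) and none of Cd3d, Cd3e, Cd3g and Cd4 among them, and summed to 90.8 to 210 in MYC-positive samples and 60.2 to 105 in MYC-negative samples. In bulk samples, fewer cells of a type and less RNA per cell cannot be told apart.

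More of these enzyme genes were lower than higher in MYC-positive cells. In the fit across all genes, 19 of the 70 were lower (27.1%) and 5 were higher (7.14%) at a limma adjusted p under 0.05. Over all 11754 genes tested, 11.5% were lower and 11.2% were higher, or 22.7% in either direction. The remaining 46 enzyme genes did not pass. Of the 70, 47 had a log2 difference below 0, as had 6361 of all 11754 genes tested. The median of the 70 was -0.38, against -0.06 over all genes tested. The median of the enzyme genes was -0.40, -0.36, -0.46 and -0.23 in pairs 1 to 4, and that of all genes was 0.03, -0.06, -0.20 and 0.00. In 11 of the 70 genes all 4 MYC-positive samples lay below all 4 MYC-negative samples, and in 3 they lay above, while 10.9% and 11.1% of all genes tested did so.

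The split between directions moved with the scaling of the arrays. Centring each array on its median moved the all-gene median up by 0.44, from -0.06 to 0.38, and that of the enzymes to 0.06, and 6 enzymes were then lower (8.57%) and 13 higher (18.6%), against 4.65% and 27.3% of all genes. The 6 that stayed lower were Hdac9, Kmt2a, Kmt2c, Setd2, Kdm5a and Kdm7a, and all 5 of the genes that rose also rose there. After quantile normalization 17 were lower (24.3%) and 7 higher (10%), against 11.3% and 15.2% of all genes. The enzyme median minus the all-gene median was -0.32 as deposited, -0.32 with centred arrays and -0.25 with quantile-normalized ones.

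**Figure D1:**
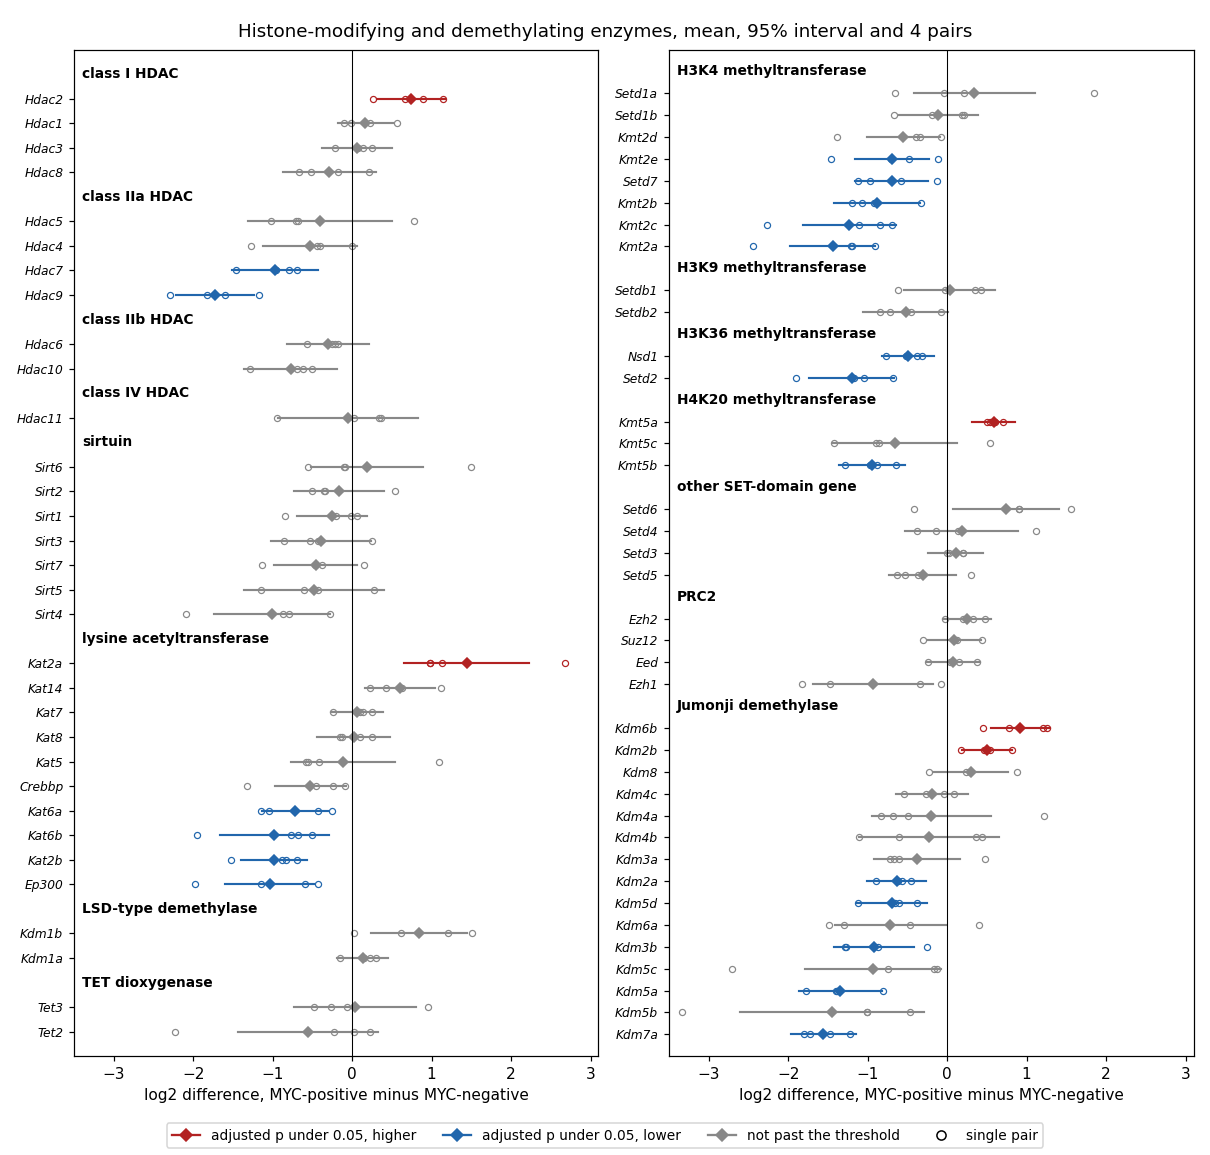
Log2 difference (MYC-positive minus MYC-negative) of the 70 enzyme genes tested, grouped by enzyme class. Diamonds are means over 4 pairs, bars 95% intervals of the limma fit and open circles single pairs; the class I HDAC genes lie between -0.29 and 0.74, while the H3K4 and H3K36 methyltransferases and the class IIa HDACs lie mostly below it.

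Among the acetyltransferases, 4 of 10 were lower (40%) and 1 was higher (10%), against 11.5% and 11.2% of all genes tested. Their median was -0.32, or 0.12 after median centring. The gene that rose was Kat2a, which encodes GCN5, the catalytic subunit of the SAGA and ATAC coactivator complexes and a known partner of MYC. Its signals were 392, 605, 210.3 and 576 in MYC-positive samples of pairs 1 to 4, against 178, 307, 107 and 90.1 in MYC-negative samples. Every pair was higher in its MYC-positive member, although the groups overlapped. The lowest MYC-positive signal was that of pair 3 and the lowest MYC-negative signal that of pair 4. The difference was 1.44 (SE 0.35, limma adjusted p = 0.019), the largest rise among the 70, and it was from 0.98 to 2.68 in single pairs. Dimmer probe sets of Kat2a gave 0.74 (pairs from -0.67 to 1.92) and 1.97 (pairs from 0.45 to 5.65). Neither passed in a limma fit over all kept probe sets (adjusted p = 0.27 and 0.11).

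The paralog of Kat2a moved the other way. Kat2b encodes PCAF, which takes the place of GCN5 in some of these complexes. Its signals were 1216, 977, 1333 and 1028 in MYC-positive samples, against 1968, 1744, 2456 and 2945 in MYC-negative samples. All 4 MYC-positive samples lay below the lowest MYC-negative sample, and the gene fell by 0.98 on the log2 scale (SE 0.19, limma adjusted p = 0.0076). After median centring the difference was -0.54 with an adjusted p of 0.056. The direct comparison of the paralogs' differences was not tested.

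Ep300 encodes p300, the coactivator that acetylates H3K27 at enhancers. It gave signals of 1416, 2186, 2580 and 641 in MYC-positive samples and 3131, 2943, 3885 and 2522 in MYC-negative samples. Each pair was lower in its MYC-positive member, the groups overlapped narrowly, and the difference was -1.04 (SE 0.25, limma adjusted p = 0.019). Its paralog Crebbp, which encodes CBP, had signals of 5160, 6283, 7807 and 3161 in MYC-positive samples and 7086, 7417, 8297 and 7902 in MYC-negative samples. The direction was the same in all 4 pairs, but most of the gap came from pair 4, and the difference of -0.53 (SE 0.20) did not pass (limma adjusted p = 0.089). Crebbp passed after quantile normalization (-0.66, adjusted p = 0.010) and as a mean over its probe sets (-0.75, adjusted p = 0.019).

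Kat6a and Kat6b encode MOZ and MORF, paired acetyltransferases of histone H3. Kat6a signals were 2006, 3176, 3432 and 1750 in MYC-positive samples and 4448, 4294, 4104 and 3616 in MYC-negative samples, without overlap (difference -0.72, SE 0.18, limma adjusted p = 0.023). Kat6b signals were 294, 329, 361 and 89.1 in MYC-positive samples and 499.9, 528, 513 and 345 in MYC-negative samples. The MYC-positive sample of pair 4 was far below the other 3, and the fall of 0.98 (SE 0.30) had an adjusted p of 0.046 that missed the threshold in 9 of 12 alternatives. Of the other acetyltransferases, Kat14, an ATAC subunit, came nearest to passing (0.60, adjusted p = 0.055). Kat5, Kat7 and Kat8, the catalytic subunits of the TIP60, HBO1 and MOF complexes, had differences between -0.11 and 0.06.

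Class I deacetylase genes include the catalytic subunits of the main nuclear corepressor complexes. Of the 4 members, 1 was higher and 0 lower, against 11.2% and 11.5% of all genes tested. At an unadjusted p under 0.05 in the limma fit 0 were lower as well. Hdac2 signals were 2260, 2086, 2264 and 1940 in MYC-positive samples, against 1021, 1312, 1223 and 1618 in MYC-negative samples. The lowest MYC-positive sample lay above the highest MYC-negative sample, and the difference was 0.74 (SE 0.19, limma adjusted p = 0.022). Its close paralog Hdac1 had a difference of 0.17 (adjusted p = 0.47), or 0.61 after median centring (limma adjusted p = 0.032). With centred arrays 2 of 4 class I genes were higher, where 27.3% of all genes tested were. The class median was 0.12 as deposited and 0.55 with centred arrays. Hdac8 had a difference of -0.29 (adjusted p = 0.47). Hdac3, the deacetylase of the NCoR and SMRT corepressors, had signals of 837, 899, 611 and 736.5 in MYC-positive samples and 793, 754, 707 and 670.1 in MYC-negative samples. These ranges lay over each other, and the difference was 0.06, with a 95% interval from -0.37 to 0.50 (adjusted p = 0.85).

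Class IIa deacetylases bind MEF2 factors and shuttle between nucleus and cytoplasm on signalling. Of their 4 genes 2 were lower (50%) and 0 higher, against 11.5% and 11.2% of all genes tested. At an unadjusted p under 0.05 in the limma fit 0 were higher as well. The class median was -0.75, or -0.31 after median centring. Hdac9 changed most among the 70. Its signals were 481, 622, 805 and 402.5 in MYC-positive samples, against 1711, 1891, 1814 and 1965 in MYC-negative samples. No MYC-positive sample reached the MYC-negative range, whose 4 values were close together, and the gene fell by 1.72 on the log2 scale (SE 0.22, limma adjusted p = 0.0015). Hdac9 passed in all 12 alternatives, with differences from -1.91 to -1.28. Hdac7 had signals of 322, 432, 332 and 168 in MYC-positive samples and 887, 836, 536 and 291 in MYC-negative samples, lower in each pair with overlap across pairs (-0.97, SE 0.24, adjusted p = 0.020). Hdac4 (-0.53) and Hdac5 (-0.41) did not pass, nor did the class IIb genes Hdac6 (-0.30) and Hdac10 (-0.77, adjusted p = 0.063) or the class IV gene Hdac11 (-0.05). With means over probe sets Hdac4 (-0.88, limma adjusted p = 0.0445) and Hdac10 (-0.77, limma adjusted p = 0.042) passed.

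None of the 7 sirtuin genes, which encode NAD-dependent deacylases, passed in either direction, and 1 had an unadjusted p under 0.05. Their differences ran from -1.01 (Sirt4, adjusted p = 0.052) to 0.18 (Sirt6), with a median of -0.39 that was 0.05 after median centring. Sirt1, the nuclear sirtuin that deacetylates histones and transcription factors, had a difference of -0.25 (adjusted p = 0.39).

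Of the members grouped as H3K4 methyltransferases, 5 of 8 were lower, against 11.5% of all genes tested. The 5 include Kmt2e, whose methyltransferase activity is not settled. In this class 0 were higher, also 0 at an unadjusted p under 0.05 in the limma fit. The class median was -0.69, or -0.68 with quantile-normalized arrays and -0.26 with centred ones, where 2 of 8 were lower. Kmt2a encodes MLL1, the founding member of the MLL family. Its signals were 3131, 3681, 2185 and 664 in MYC-positive samples, against 7168, 6926, 5043 and 3623 in MYC-negative samples. The pairs fell by 0.91 to 2.45 on the log2 scale, most in pair 4, and of the MYC-positive samples only that of pair 2 reached the MYC-negative range. The difference was -1.44 (SE 0.24, limma adjusted p = 0.0044), and it passed in all 12 alternatives.

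Kmt2c encodes MLL3, which with MLL4 places single methyl groups on H3K4 at enhancers. Its signals were 1307, 1589, 1427 and 456 in MYC-positive samples and 2815, 2863, 2308 and 2195 in MYC-negative samples, without overlap (-1.23, SE 0.26, limma adjusted p = 0.011). Kmt2d encodes MLL4 itself. Its signals were 5629, 5534, 6714 and 3191 in MYC-positive samples and 7140, 7277, 7082 and 8366 in MYC-negative samples. These groups did not overlap either, but the gap was 0.08 in pair 3 and 1.39 in pair 4, and the difference of -0.55 (SE 0.20) did not pass (adjusted p = 0.085). It passed after quantile normalization (-0.68, adjusted p = 0.0088).

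Kmt2b, which encodes MLL2, fell by 0.88 on the log2 scale (SE 0.24, adjusted p = 0.029), with signals of 165 to 573 in MYC-positive samples and 347 to 964 in MYC-negative samples. Kmt2e, whose product has a SET domain but no settled methyltransferase activity, fell by 0.69 (SE 0.21, adjusted p = 0.041) without overlap. Setd7, a methyltransferase of H3K4 and of other proteins, fell by 0.70 (SE 0.20, adjusted p = 0.037). Setd1a (0.34) and Setd1b (-0.11), the subunits that give the bulk of H3K4 trimethylation, did not pass and had pairs of both signs.

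Both H3K36 methyltransferases among the members were lower. Setd2 makes the trimethyl mark behind elongating polymerase, and its signals were 711, 929, 573 and 194 in MYC-positive samples against 1600, 1485, 1185 and 726 in MYC-negative samples. Each pair fell, by 0.68 to 1.91, and the difference was -1.20 (SE 0.24, limma adjusted p = 0.0087). Nsd1, which makes the dimethyl mark, fell by 0.49 (SE 0.15, adjusted p = 0.041), a difference that was -0.05 after median centring.

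The H4K20 methyltransferases split in direction. Kmt5a places the first methyl group on H4K20 and its protein is tied to the cell cycle. Its signals were 6671, 6549, 6908 and 8490 in MYC-positive samples, against 4603, 4640, 4555 and 5197 in MYC-negative samples. The pairs gave 0.50 to 0.71 and the groups did not overlap (0.59, SE 0.12, limma adjusted p = 0.011). Kmt5b extends that mark to the dimethyl and trimethyl forms. It had signals of 982, 1081, 885 and 495 in MYC-positive samples and 1926, 1694, 1633 and 1205 in MYC-negative samples, again without overlap but in the opposite direction (-0.95, SE 0.18, adjusted p = 0.0080). Kmt5c, the other gene of that step, had a difference of -0.66 (adjusted p = 0.21).

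**Figure D2:**
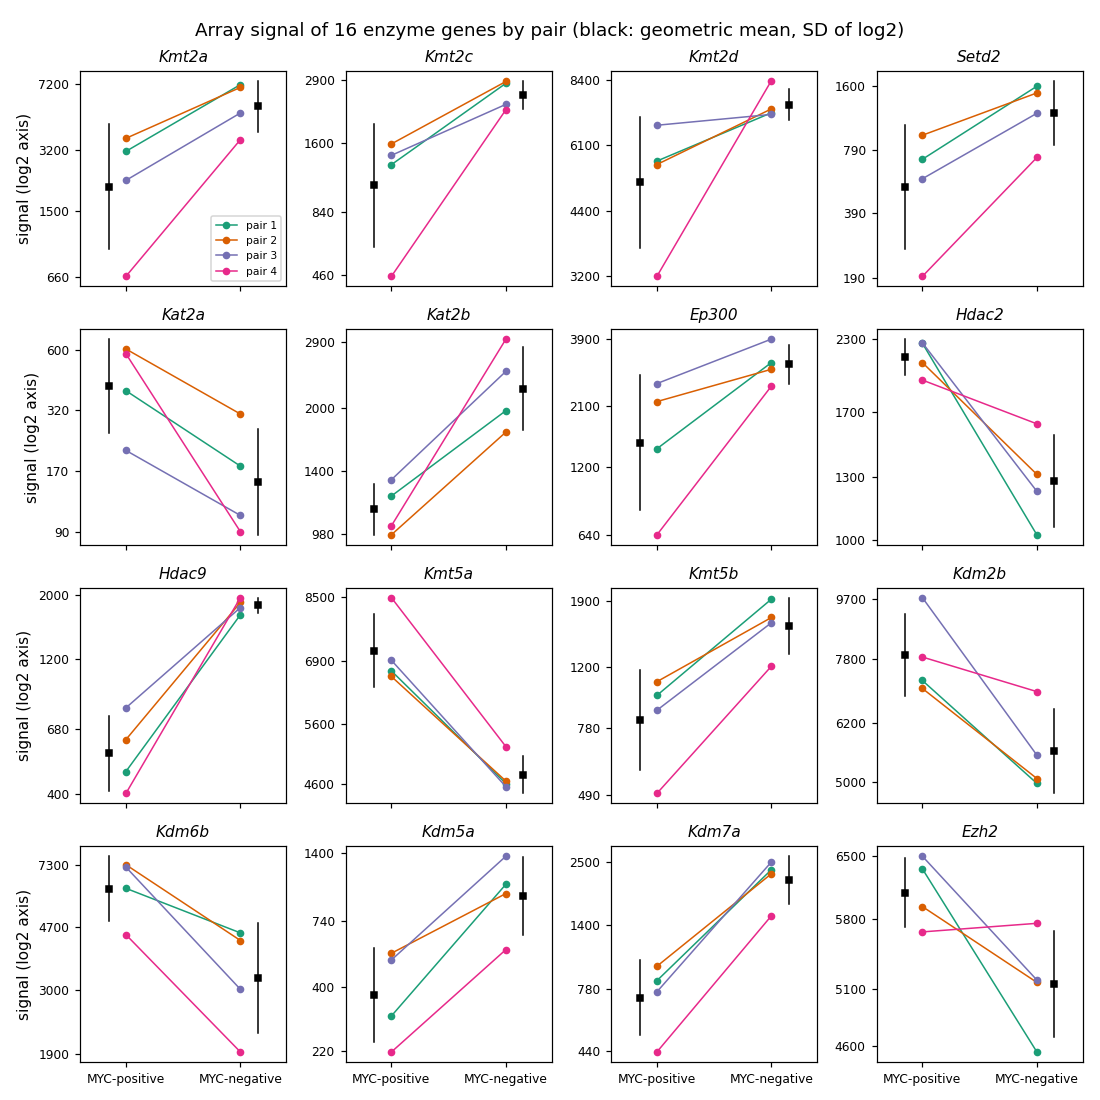
Array signal (log2 axis, each panel on its own range) of 16 enzyme genes in the MYC-positive and MYC-negative sample of each pair, joined by a line; black squares are geometric means with the SD of log2 signal (n = 4 each). Hdac9 and Kdm7a fall to well below their MYC-negative range in all 4 pairs, while Kmt5a, Hdac2 and Kdm2b lie above it, and pair 4 is the lowest MYC-positive sample for Kmt2a, Kmt2c, Setd2 and Ep300.

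The Polycomb repressive complex PRC2, which methylates H3K27, had 0 of 4 members called by limma, and 1 (Ezh1) with an unadjusted p under 0.05. Ezh2, its main catalytic subunit in dividing cells, had signals of 6350, 5929, 6498 and 5662 in MYC-positive samples and 4551, 5165, 5187 and 5751 in MYC-negative samples. It was higher in pairs 1 to 3 and nearly level in pair 4, and the difference of 0.25 (SE 0.13, 95% interval -0.06 to 0.55) did not pass (limma adjusted p = 0.22). It was 0.69 after median centring, with an adjusted p of 0.012. Suz12 (0.09) and Eed (0.08), the core subunits, did not pass. The PRC2 median was 0.08 as deposited and 0.53 after median centring. Ezh1, the alternative catalytic subunit, known from resting cells, had signals of 228, 445, 409.5 and 128 in MYC-positive samples and 636, 565, 433 and 454 in MYC-negative samples. All pairs were lower but pair 3 barely so, and the difference was -0.93 (SE 0.33, adjusted p = 0.076). The remaining SET genes, Setdb1, Setdb2, Setd3, Setd4, Setd5 and Setd6, did not pass either, with differences between -0.52 and 0.74.

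Of the 17 histone demethylases among the members tested, 5 were lower (29.4%) and 2 higher (11.8%), against 11.5% and 11.2% of all genes tested. The flavin-dependent enzymes Kdm1a (LSD1) and Kdm1b (LSD2), which act on H3K4, did not pass. Kdm1a signals were 2925, 3950, 3648 and 3769 in MYC-positive samples and 3250, 3380, 2950 and 3405 in MYC-negative samples, which overlapped (0.13, adjusted p = 0.55). Kdm1b came close to the threshold at 0.84 (SE 0.27, adjusted p = 0.051), with its pairs between 0.03 and 1.50. After median centring both passed, Kdm1a at 0.57 (limma adjusted p = 0.036) and Kdm1b at 1.28 (limma adjusted p = 0.0027).

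The Jumonji enzymes among the members use iron and oxoglutarate. Of 15, 5 were lower (33.3%) and 2 higher (13.3%), against 11.5% and 11.2% of all genes tested. The class median was -0.63, or -0.19 after median centring. Kdm7a, which demethylates H3K9 and H3K27, had signals of 838, 956, 756 and 435 in MYC-positive samples, against 2322, 2237, 2493 and 1521 in MYC-negative samples. The highest MYC-positive sample was well under the lowest MYC-negative sample, and the gene fell by 1.56 on the log2 scale (SE 0.18, limma adjusted p = 0.0011). Kdm3b, an H3K9 demethylase, fell by 0.92 (SE 0.22, adjusted p = 0.019) without overlap. Kdm2a, an H3K36 demethylase, fell by 0.63 (SE 0.16, adjusted p = 0.025), with signals of 829 to 1473 in MYC-positive samples and 1272 to 2417 in MYC-negative samples. Kdm3a, an H3K9 demethylase, Kdm4a, Kdm4b and Kdm4c, which act on H3K9 and H3K36, and Kdm8 did not pass, with differences from -0.38 (Kdm3a) to 0.29 (Kdm8).

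The KDM5 enzymes remove H3K4 methylation, the mark that the MLL family writes. Kdm5a signals were 304.5, 548, 515 and 217 in MYC-positive samples and 1047, 959.5, 1362 and 568 in MYC-negative samples, without overlap (-1.34, SE 0.23, limma adjusted p = 0.0049). Without pair 3 another probe set of Kdm5a was the brightest, and it gave -0.52 (adjusted p = 0.22). Kdm5b (-1.45, adjusted p = 0.073) was dim, with signals of 20.4 to 63.0 in MYC-positive samples and 42.4 to 205 in MYC-negative samples. Kdm5c (-0.94, adjusted p = 0.11) owed most of its difference to pair 4 (-2.71) in its brightest probe set. A dim probe set of Kdm5c was lower in every pair (-2.15, adjusted p = 0.019 in a limma fit over all kept probe sets). Some other Kdm5c probe sets had pairs of both signs. As means over probe sets Kdm5b (-1.47, limma adjusted p = 0.0295) and Kdm5c (-0.91, limma adjusted p = 0.042) passed.

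Kdm5d, the KDM5 gene of the Y chromosome, fell by 0.69 (SE 0.20, adjusted p = 0.034), with signals of 752, 499.3, 1110 and 805 in MYC-positive samples and 1186, 649, 1683 and 1757 in MYC-negative samples. Pair 2 was the lowest in both groups. Xist, chosen after its values were seen, gave signals of 5501 and 6927 in the MYC-positive and the MYC-negative sample of pair 2, and of 15.1 to 50.7 in the other MYC-positive and 5.17 to 40.1 in the other MYC-negative samples. The Y-linked gene Eif2s3y was 3096 to 5228 in MYC-positive samples and 3799 to 7722 in MYC-negative samples. Xist and the Y-linked genes were thus both well detected in pair 2, and the part of this in the values of the sex-linked members Kdm5c, Kdm5d and Kdm6a was not tested. Kdm6a, the X-linked H3K27 demethylase, had signals of 516, 1052, 1023 and 372 in MYC-positive samples and 1272, 799, 1414 and 1046 in MYC-negative samples. This probe set was lower in pairs 1, 3 and 4 and higher in pair 2 (-0.72, SE 0.31, adjusted p = 0.13). Dimmer probe sets of Kdm6a, at -1.27, -0.91 and -1.49, were lower in every pair. The first of these passed in a limma fit over all kept probe sets (adjusted p = 0.00945), and the other ones did not. As a mean over its probe sets Kdm6a passed (-1.10, limma adjusted p = 0.026).

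Its autosomal paralog Kdm6b, which encodes the inducible H3K27 demethylase JMJD3, rose. Its signals were 6178, 7306, 7185 and 4445 in MYC-positive samples, against 4500, 4263, 3013 and 1930 in MYC-negative samples. Each pair was higher, with an overlap only between the MYC-positive sample of pair 4 and the MYC-negative sample of pair 1 (0.92, SE 0.17, limma adjusted p = 0.0060). Averaging its probe sets turned the sign to -0.10, because a dim second probe set (29.0 in MYC-positive and 63.5 in MYC-negative samples) had a difference of -1.13. A probe set shared with 1700064E03Rik, outside the rule, read 1420 in MYC-positive and 717 in MYC-negative samples (0.99). Kdm2b, an H3K36 demethylase that also brings a variant Polycomb complex to CpG islands, had signals of 7226, 7021, 9748 and 7865 in MYC-positive samples and 4981, 5070, 5516 and 6941 in MYC-negative samples. The groups did not overlap, with the MYC-negative sample of pair 4 closest to the MYC-positive range (0.50, SE 0.14, adjusted p = 0.031).

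The TET enzymes oxidise methylated cytosine. Tet2 signals were 615.5, 635, 774 and 74.2 in MYC-positive samples and 724, 626, 662 and 347 in MYC-negative samples. Pairs 1 to 3 were close to level and pair 4 was low, lowest in its MYC-positive sample (-0.55, SE 0.39, adjusted p = 0.35). Without pair 4 the Tet2 difference was 0.00. A dimmer probe set of Tet2 (90.2 in MYC-positive and 232 in MYC-negative samples) was lower in every pair, from -3.34 to -0.39. Its difference of -1.36 did not pass in a limma fit over all kept probe sets (adjusted p = 0.081). As a mean over probe sets Tet2 was -0.96 (limma adjusted p = 0.14). Tet3 was 0.04 (adjusted p = 0.95).

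Several members were read by more than 1 probe set. Of the 5 genes that rose, all had others above the filter, and 5 of these 8 probe sets had the same sign. The 3 of opposite sign were the dim ones of Kdm6b, Hdac2 and Kmt5a. A brighter second probe set of Hdac2 gave 0.82 and one of Kmt5a gave 0.83. As means over all probe sets, Hdac2 was 0.15 (adjusted p = 0.69) and Kmt5a 0.02 (adjusted p = 0.96), neither past the threshold. Kat2a (1.38, adjusted p = 0.059) and Kdm7a (-0.98, adjusted p = 0.055) also missed it there. Of the genes called by their brightest probe set, that setting kept 1 of the 5 that rose (Kdm2b) and 14 of the 19 that fell. Among members not called as reported, Crebbp, Hdac4, Hdac10, Kdm5b, Kdm5c, Kdm6a, Setd3 and Sirt4 were lower in that setting and Kdm1b was higher. Of the 19 genes that fell, 14 had 37 others, of which 36 had the same sign, the exception being a dim probe set of Kdm7a (1.09). Kmt2a had a second bright probe set with signals of 1262 in MYC-positive and 4051 in MYC-negative samples (-1.68).

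**Figure D3:**
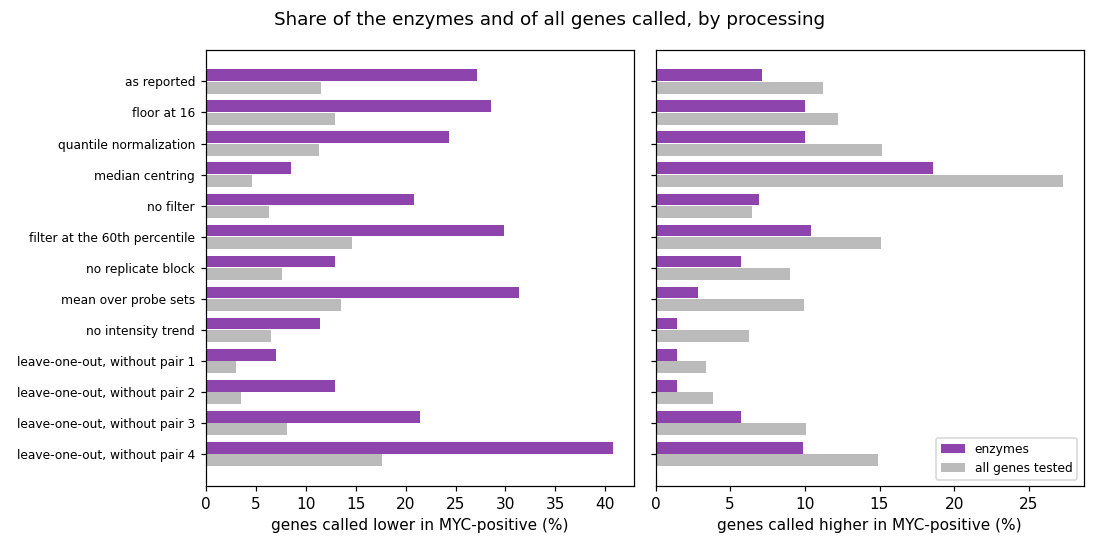
Percent of the enzyme genes (purple) and of all genes tested (grey) called lower or higher in MYC-positive samples at a limma adjusted p under 0.05, as reported and under each of 12 alternatives. The purple bar is the longer one for lower calls in all 12, and the shorter one for higher calls in 11, the exception being the fit with no filter.

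Genes that are not members but act in the same complexes or on the same marks were counted beside the enzymes. Of 143 measured, 20 were higher (14%) and 18 lower (12.6%), against 11.2% and 11.5% of all genes tested, with a median of -0.03. The split moved with the scaling: after median centring 50 were higher and 7 lower. Its difference from the split of the enzymes was not tested. Among 46 subunits of acetyltransferase complexes, 6 were higher and 3 lower. Tada2a, an adaptor of the ATAC complex that carries GCN5, averaged 1408 in MYC-positive and 551 in MYC-negative samples (geometric means, 1.35, limma adjusted p = 0.0032). Ruvbl1, an ATPase subunit of the TIP60 complex, rose by a like amount (1.34, adjusted p = 0.0030). Atxn7, a SAGA deubiquitinase module subunit, fell by 1.48 (adjusted p = 0.0047), and Ing4, a reader subunit of the HBO1 complex, fell by 1.36 (adjusted p = 0.023).

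Among 24 subunits of HDAC complexes 5 were lower and 0 higher, against 11.5% and 11.2% of all genes tested. At an unadjusted p under 0.05 in the limma fit 3 were higher (Mbd3, Mta1 and Rbbp7, named after their values were seen). The largest of the 5 were Rcor3 (-1.20, adjusted p = 0.0073), a CoREST family scaffold, and Mta3 (-0.95, adjusted p = 0.012), a NuRD subunit known in GC B cells as a partner of BCL6. Of 12 COMPASS subunits, which the H3K4 methyltransferases need, 1 was higher and 0 lower, or 1 lower at an unadjusted p under 0.05 in the limma fit. The higher one was Wdr5 (0.60, SE 0.16, adjusted p = 0.026), with a geometric mean of 2077 in MYC-positive and 1370 in MYC-negative samples. Of 23 other Polycomb subunits 4 were higher and 1 lower. Epop (2.63) and Pcgf6 (0.74, adjusted p = 0.043) rose, Epop from a dim probe set (87.4 in MYC-positive and 14.1 in MYC-negative samples), and Jarid2, a PRC2 cofactor, fell by 0.52 (adjusted p = 0.0495).

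Other lysine methyltransferases included 4 higher and 4 lower of 15, against 11.2% and 11.5% of all genes tested. Smyd2, a methyltransferase of histones and other proteins, averaged 474 in MYC-positive and 41.7 in MYC-negative samples, a difference of 3.51 (SE 0.40, adjusted p = 0.0010). Prdm16 rose by 1.58 (adjusted p = 0.020), while 2 dim genes fell, Prdm9 (10.3 in MYC-positive and 59.5 in MYC-negative samples, -2.54) and Smyd1 (12.0 in MYC-positive and 40.8 in MYC-negative samples, -1.76). Of 8 DNA methylation genes, 1 was higher and 2 lower. Dnmt3a, a de novo DNA methyltransferase, rose by 1.05 (SE 0.21, adjusted p = 0.0087). The glycosylase gene Mbd4 fell by 1.02 (adjusted p = 0.0024) and Idh1, whose enzyme makes oxoglutarate, fell by 0.99 (adjusted p = 0.0040). Among 15 other erasers and cofactor enzymes 4 were higher and 3 lower, with Riox1 (1.29), a Jumonji hydroxylase, and Nampt (1.04), the NAD salvage enzyme, higher, and Hif1an (-0.82) and the demethylase Phf8 (-0.68) lower.

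**Figure D4:**
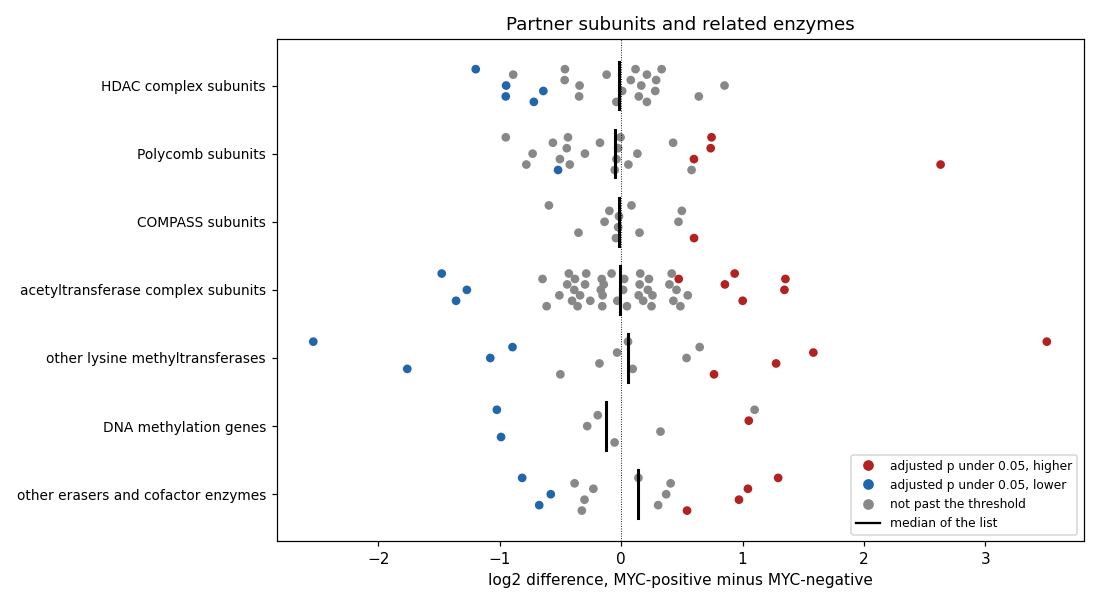
Log2 difference (MYC-positive minus MYC-negative) of 143 genes of 7 lists: partner subunits of the enzymes and related enzymes that are not members. Points are genes, black bars the median of each list; the list medians lie between -0.12 and 0.14.

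MYC with its partner MAX binds the E-box CACGTG, a palindrome that reads the same on both strands, so it was searched in RefSeq promoter windows (250 bases before to 50 after the start, GRCm38.p6). Windows were found for 57 of the 70 enzymes, and 5 of them (8.77%) held the motif, against 11.7% of 9544 genes tested with a window and 7.15% of all 32851 windows. It was in 0 of 4 members that rose and 0 of 12 that fell, and in 5 of 41 not called (Hdac5, Kat5, Kdm4c, Kdm6a and Sirt1). Over all genes tested, 17.4% of those higher and 9.55% of those lower held it. A match is a run of letters and no evidence of binding. The windows of 2 members that rose, 3 that fell and, for contrast, Sirt1 are shown so that the letters can be read beside the values above. Capitals mark CACGTG, which in Sirt1 begins 115 and 43 bases before the start. The positions are Kat2a at chr11:100712418-100712717 on the minus strand, Hdac2 at chr10:36974294-36974593 on the plus strand, Kmt2a at chr9:44881240-44881539, Kmt2c at chr5:25498734-25499033, Kdm7a at chr6:39206724-39207023 and Sirt1 at chr10:63338986-63339285, the last 4 on the minus strand.
Kat2a: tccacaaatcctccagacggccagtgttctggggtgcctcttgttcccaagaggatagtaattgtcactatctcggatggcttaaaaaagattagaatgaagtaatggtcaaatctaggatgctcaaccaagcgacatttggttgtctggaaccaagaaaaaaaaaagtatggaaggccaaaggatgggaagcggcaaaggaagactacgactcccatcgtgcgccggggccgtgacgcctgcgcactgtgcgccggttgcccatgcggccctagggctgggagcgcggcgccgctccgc
Hdac2: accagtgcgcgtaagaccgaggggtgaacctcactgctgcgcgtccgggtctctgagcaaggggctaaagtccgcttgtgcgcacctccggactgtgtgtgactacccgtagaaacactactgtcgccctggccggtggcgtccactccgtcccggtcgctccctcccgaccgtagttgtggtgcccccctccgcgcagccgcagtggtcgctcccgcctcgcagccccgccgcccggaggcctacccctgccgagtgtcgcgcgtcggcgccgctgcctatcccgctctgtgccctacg
Kmt2a: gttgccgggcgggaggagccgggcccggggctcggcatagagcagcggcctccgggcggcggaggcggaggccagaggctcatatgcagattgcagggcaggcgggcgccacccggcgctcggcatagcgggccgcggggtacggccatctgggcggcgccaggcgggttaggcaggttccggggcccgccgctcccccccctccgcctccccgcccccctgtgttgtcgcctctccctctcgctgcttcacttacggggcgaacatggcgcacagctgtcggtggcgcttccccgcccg
Kmt2c: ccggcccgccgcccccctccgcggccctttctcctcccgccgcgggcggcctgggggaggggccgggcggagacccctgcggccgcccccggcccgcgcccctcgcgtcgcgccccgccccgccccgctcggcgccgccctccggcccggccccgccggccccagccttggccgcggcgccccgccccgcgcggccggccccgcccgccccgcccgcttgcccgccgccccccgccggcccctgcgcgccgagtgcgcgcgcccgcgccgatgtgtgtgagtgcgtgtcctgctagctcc
Kdm7a: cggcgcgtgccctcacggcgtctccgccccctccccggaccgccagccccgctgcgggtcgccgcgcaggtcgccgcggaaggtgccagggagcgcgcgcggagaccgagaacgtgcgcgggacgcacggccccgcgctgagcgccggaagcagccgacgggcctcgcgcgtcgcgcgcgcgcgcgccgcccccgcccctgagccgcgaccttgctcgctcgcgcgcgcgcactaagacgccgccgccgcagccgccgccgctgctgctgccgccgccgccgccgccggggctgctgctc
Sirt1: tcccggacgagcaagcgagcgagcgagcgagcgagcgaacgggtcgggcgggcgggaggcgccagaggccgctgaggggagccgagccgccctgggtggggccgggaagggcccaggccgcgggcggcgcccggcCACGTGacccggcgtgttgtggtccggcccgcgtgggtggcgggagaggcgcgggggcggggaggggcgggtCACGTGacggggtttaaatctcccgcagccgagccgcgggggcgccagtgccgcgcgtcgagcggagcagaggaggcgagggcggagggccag

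The Kat2a window held no CACGTG, and the gene rose in all 4 pairs. The Sirt1 window held 2. Sirt1 signals were 1251, 1382, 1838 and 1167 in MYC-positive samples and overlapped those of 1444, 1329, 1855 and 2101 in MYC-negative samples. Whether MYC binds near either gene was not tested.

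The arrays of pair 4 were the lowest for many members. The MYC-positive sample of pair 4 held the lowest MYC-positive signal for 37 of the 70, against 33.9% of all genes, and the MYC-negative sample of pair 4 held the lowest MYC-negative signal for 44, against 45.9% of all genes. Without pair 4, 29 enzymes were lower (40.8%) and 7 higher (9.86%), against 17.6% and 14.9% of all genes. Without pair 1, 5 were lower (7.04%) and 1 higher (1.41%), against 3.01% and 3.38% of all genes. Without pair 2, 9 were lower (12.9%) and 1 higher (1.43%), against 3.57% and 3.85% of all genes. Of the genes called, 2 passed in all 12 alternatives: Hdac9 and Kmt2a.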

How the data were processed

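RNA of 8 sorted samples was amplified from 5 to 20 ng with NuGEN kits and hybridised to Affymetrix mouse arrays, per the labels' protocols. The authors deposited one linear signal intensity per probe set. MAS5 is named in the submitters' processing notes, with version and scaling not given in the sources used here. Of 45056 probe sets, 34945 had 1 gene symbol in the platform annotation, 932 had several and 9160 none; 34741 matched a RefSeq gene identifier, which changed 0 symbols. A floor of 1 was applied before taking log2. Probe sets with a mean above the 40th percentile were kept, and the brightest stood for its gene. limma 3.58.1 in R 4.3.3 fitted group with pair as a block over 11754 genes (eBayes with an intensity trend, 3 residual degrees of freedom, 2-sided, Benjamini-Hochberg, adjusted p under 0.05). P-values, SEs and intervals rest on the spread between these pairs, moderated by that of all genes tested (8.92 total degrees of freedom). The pairs may not be separate animals. Pairs come from the sample descriptions; paired samples' deviations correlated at 0.26, 0.17, 0.09 and 0.12.

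The members, lists and tests were chosen with earlier results of these data known. Genes named are Myc, called members with the same sign in all pairs (at most 15 a direction), 9 fixed members and the 2 largest called genes a direction of each partner list. Beyond these, Kdm5d, Kmt2e, Kdm2a, Nsd1 and members not called are named to account for each class. On simulated arrays with 50 genes changed by each amount the fit recovered 80% of those raised by 2, 48% raised by 1, 36% lowered by 1 and 68% lowered by 2 on the log2 scale, with 9 false calls. Far fewer genes were changed there than the 2671 called in the data, and noise was drawn independently for each gene and array. These rates and the false calls need not hold for the data. Alternatives were a floor of 16, quantile normalization, median centring, no filter or one at the 60th percentile, no block, the mean over probe sets, no trend and each pair left out.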

Additional observations from a re-analysis of the deposited data

Results flagged for a closer look

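In 12 of 98 groups of 4 arrays, drawn from the genes named by the rule, 1 array stood apart from the other 3 by Dixon's criterion, which chance meets in about 5 of 100 groups. Of these 12, 10 were arrays of pair 4, and the arrays of a pair are shared by all genes, so the flags are not independent. The MYC-positive array of pair 4 was low for Kmt2c (log2 signal 8.83, others 10.35 to 10.63), Kat6b (6.48, others 8.20 to 8.50), Tet2 (6.21, others 9.27 to 9.60) and Atxn7 (6.96, others 8.18 to 8.41). The MYC-negative array of pair 4 was high for Kmt5a (12.34, others 12.15 to 12.18) and Kmt2d (13.03, others 12.79 to 12.83). It was low for Kat6b (8.43, others 8.97 to 9.04), Hif1an (8.65, others 9.60 to 9.79), Wdr5 (10.18, others 10.49 to 10.51) and Mta3 (9.82, others 10.26 to 10.33). Outside pair 4, the MYC-positive array of pair 3 was low for Ruvbl1 (11.23, others 11.93 to 11.99) and the MYC-negative array of pair 1 was low for Prdm9 (5.79, others 5.92 to 5.94).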

How the results depend on the processing

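The share of the enzymes called lower exceeded that of all genes in 12 of 12 alternatives, and their median was under that of all genes in 12 of 12. Median centring gave 13 enzymes higher and 6 lower, 3204 and 546 of all genes, 50 and 7 partner genes, and an enzyme median of 0.06; higher calls made up 85.4% of all calls, against 49.4% as deposited and 57.2% after quantile normalization, where the enzyme median was -0.16. Without the intensity trend limma called 1 enzyme higher and 8 lower, 736 and 771 of all genes, and 10 and 10 partner genes. Without the replicate block it called 9 enzymes and 901 of all genes lower. With the mean over probe sets 2 enzymes were higher, Kdm2b and Kdm1b, of which Kdm2b was also called as reported, and Kdm6b turned to -0.10. With each pair left out in turn, 1 to 7 enzymes were higher and 5 to 29 lower, 399 to 1747 of all genes were higher and 355 to 2057 lower, 7 to 28 partner genes were higher and 5 to 24 lower, the enzyme median was -0.43 to -0.26, and Tet2 was -0.81 to 0.00. The cause of these shifts was not tested; a fit with a pair left out also has fewer samples. Arrays number 4 a group, and single-gene calls near the threshold depend on the settings above; no detection calls were used, so dim genes such as Kdm5b, Prdm9 and Smyd1 have no stated detection limit.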
